A study of Rattus norvegicus with 19 samples.

Results

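The mRNA levels of 10 genes of SMAD signalling were examined in rat somatosensory cortex: Smad1, Smad2, Smad3, Smad4 and Smad7, the SMAD corepressor gene Tgif1, and the SMAD target genes Id1, Id2, Id3 and Id4. They were taken by gene symbol from the 14224 genes that a probe set of the array named alone, and where several probe sets named a gene, the one brightest on average across all 19 arrays was read. In all, 19 probe sets named 1 of the 10 genes, and Smad2, Tgif1, Id1 and Id3 had 1 probe set each. All 10 genes passed the filter on low values, a log2 signal above 4 on at least 2 arrays of a set, in both sets of arrays.

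The samples came from adult male Wistar rats, and in the treated ones an agent was brought to the cortex in perfused artificial cerebrospinal fluid. In set 2, at 24 h, 4 animals received bovine serum albumin with 2 blockers of TGF-β receptors, namely an antibody to receptor type 2 (50 µg/ml) and SB431542 (100 µM), which inhibits the type 1 receptor kinase. In the same set 3 animals received albumin alone and 2 were sham operated. No sham animal received the blockers, so the blockers were measured only on top of albumin. Set 1 held 1 array for each agent and time. The agents were deoxycholate (DOC, 2 mM, taken at 7, 24 and 48 h), a bile salt used to open the blood-brain barrier, albumin (0.1 mM; 8, 24 and 48 h) and TGF-β1 (10 ng/ml; 8, 24 and 48 h), and 1 sham-operated rat was taken at 24 h. Here 7 h and 8 h together are called the early time. Albumin, DOC and TGF-β1 were thus set against a single sham array in set 1, taken at 24 h, and time after the operation was not matched at the early and the 48 h time.

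TGF-β binds the type 2 receptor, which activates the kinase of the type 1 receptor, and this kinase phosphorylates the proteins of Smad2 and Smad3. Bone morphogenetic proteins (BMPs) act through related receptors on the protein of Smad1. Both classes join the shared partner encoded by Smad4 and enter the nucleus, Smad7 encodes a feedback inhibitor, and the product of Tgif1 recruits histone deacetylases to SMAD complexes. The ID proteins have a helix-loop-helix but no DNA-binding region, and hold basic helix-loop-helix factors away from DNA. Their genes are classic targets of BMP signalling, and in the cortex they are known from astrocytes, neural progenitors and blood vessels. The arrays measured mRNA, so the phosphorylation of SMAD proteins was not measured here.

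Array medians ran between 5.09 and 5.17 (log2 signal) in set 1 and between 6.05 and 6.18 in set 2, and the sets were therefore compared only through differences taken within each. Neuron markers had mean log2 signals of 11.8 to 12.2 over the arrays of set 1 and 12.5 to 13.04 over those of set 2, and all 4 measured markers of cortical identity passed the filter in both sets. Albumin replicate 2 of set 2 stood apart from the other arrays of its set, with a median correlation of 0.977 with them, against 0.990 to 0.995 for the other 8 arrays. Where leaving it out changed a call or moved a printed difference or count by over 1.5 times, the value without it is given beside the result. The p-values cover the spread between these arrays, and their precision is limited by how few arrays there were.

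The promoters of 3 of the ID genes are shown because Id4 and Id3 were the ID genes whose mRNA passed a test in these data, and Id1, a widely used readout of BMP signalling, did not. RefSeq held a promoter window, 250 bases before to 50 after an annotated start on assembly GRCr8, for 9 of the 10 genes, and none was at hand for Tgif1. Capitals mark a SMAD box, GTCTG or its reverse complement CAGAC, and the GC-rich motif GGCGCC known from sites of the Smad1 protein. The windows are chr17:16598244-16598543 on the minus strand for Id4, chr5:153656041-153656340 on the plus strand for Id3, and chr3:161671314-161671613 on the plus strand for Id1.
Id4: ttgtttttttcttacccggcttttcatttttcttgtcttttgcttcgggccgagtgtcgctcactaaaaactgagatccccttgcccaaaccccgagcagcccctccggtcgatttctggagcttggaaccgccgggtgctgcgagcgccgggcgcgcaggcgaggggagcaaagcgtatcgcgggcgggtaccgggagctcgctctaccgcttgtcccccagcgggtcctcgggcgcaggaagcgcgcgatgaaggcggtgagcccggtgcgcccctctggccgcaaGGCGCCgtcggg
Id3: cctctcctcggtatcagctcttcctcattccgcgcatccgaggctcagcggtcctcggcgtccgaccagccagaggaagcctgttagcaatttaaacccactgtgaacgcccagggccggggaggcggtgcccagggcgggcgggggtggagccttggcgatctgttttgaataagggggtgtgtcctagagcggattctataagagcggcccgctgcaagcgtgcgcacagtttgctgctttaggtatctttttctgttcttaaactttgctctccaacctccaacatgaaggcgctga
Id1: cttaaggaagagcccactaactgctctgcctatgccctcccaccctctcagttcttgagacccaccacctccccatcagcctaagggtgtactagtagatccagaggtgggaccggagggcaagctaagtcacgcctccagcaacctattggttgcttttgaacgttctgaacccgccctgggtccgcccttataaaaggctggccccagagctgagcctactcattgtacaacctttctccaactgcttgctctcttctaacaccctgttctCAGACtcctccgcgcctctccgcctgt
The Id4 window held 1 GGCGCC, beginning 38 bases past the annotated start, and no SMAD box of the form GTCTG. The annotated start of Id4 falls on an ATG, and no stop codon in that frame precedes the motif. The GGCGCC may thus be coding sequence, and whether this start is a start of transcription was not tested. The Id1 window held 1 SMAD box, beginning 23 bases past the start, and a TATAAA beginning at −59 from it. The Id3 and Smad1 windows held none of the 6 motifs searched on both strands, which were GTCTG, the palindrome GTCTAGAC, GGCGCC, the E-boxes CACGTG and CAGCTG, and TATAAA. Of 21851 promoter windows of protein-coding genes, 50.1% held a GTCTG in either orientation, 0.165% the palindrome, 14.1% GGCGCC, 7.02% CACGTG and 15.2% CAGCTG, and TATAAA was in 2843 of them. The GGCGCC motif was also in the windows of Smad2, Smad3 and Smad7, with 2 matches for Smad7 and 2 in the first of the 2 windows of Smad2. CAGCTG was in the window of Id2, and a TATAAA began at −148 in that of Smad4.

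The first comparison asked how albumin changed these genes after 24 h in set 2. Tgif1 rose, to 2.73 times the sham level, and Id4 fell, its sham level being 2.34 times that with albumin. Smad1, which answers to BMP receptors, was 1.80 times the sham level but missed the threshold of an adjusted p under 0.05. The other 7 genes, among them the TGF-β effectors Smad2 and Smad3 and the classic targets Id1 and Id3, missed it as well. In this comparison 1.33% of the 10333 genes tested passed, 0.958% as higher and 0.368% as lower with albumin.

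Tgif1 had log2 signals of 7.78, 8.67 and 8.41 with albumin, against 6.83 and 6.84 in sham animals. All 3 albumin arrays lay above both sham arrays, and albumin replicate 1 was the lowest of them. The difference was 1.45 ± 0.27 on the log2 scale (SE, n = 3 against 2; limma, adjusted p = 0.0495). Without albumin replicate 2 it was 1.26 with an adjusted p of 0.0663. Of the 9 arrays, leaving out albumin replicate 1 kept the call (1.70, adjusted p = 0.0358), and leaving out each of the other 8 in turn ended it, with adjusted p-values of 0.0567 to 0.322.

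Id4 had log2 signals of 9.48, 9.25 and 9.50 with albumin, against 10.76 and 10.51 in sham animals. Again the groups did not overlap, and every albumin array was at least 1 log2 unit below the lower sham array. The difference was −1.23 ± 0.23 (SE, n = 3 against 2; limma, adjusted p = 0.0490), and −1.15 without albumin replicate 2 (adjusted p = 0.0722). The call was kept without replicate 3 of albumin plus blockers (adjusted p = 0.0205), which enters through the shared estimate of the spread, and ended without each of the other 8 arrays (adjusted p 0.0581 to 0.340, values −1.35 to −1.10). Id4 was read by 4 probe sets, and on each of them the 3 albumin arrays lay below both sham arrays. Their differences were −1.23, −1.12, −0.94 and −1.49 on the log2 scale. Fitted as separate probe sets, none passed the threshold, and the one used had an adjusted p of 0.0627. The Id4 and Tgif1 calls were also both lost with no filter on low values (adjusted p = 0.0741 and 0.0757) and with the 5 albumin and sham arrays fitted alone (0.0951 and 0.184). With each array centred on its median, Id4 kept its call (−1.27, adjusted p = 0.0489) and Tgif1 lost it (1.404, adjusted p = 0.0587).

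Smad1 had log2 signals of 10.27, 10.70 and 9.97 with albumin, against 9.49 and 9.44 in sham animals. The albumin arrays all lay higher, with replicate 2 the highest. The difference was 0.85 ± 0.19 (SE; limma, adjusted p = 0.0654). Leaving out albumin replicate 2 brought it past the threshold (0.66, adjusted p = 0.0490), and so did leaving out replicate 3 (1.02, adjusted p = 0.0475). A second, dimmer Smad1 probe set differed by 1.44, also with no overlap.

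Of the other SMAD genes, Smad2 differed by 0.62 ± 0.24 (adjusted p = 0.195; 0.34 without sham replicate 1) and Smad4 by 0.37 ± 0.15 (adjusted p = 0.215), both with no overlap between the albumin and the sham arrays. Without albumin replicate 2 the Smad4 difference was 0.22. The inhibitory Smad7 differed by 0.32 ± 0.19 (adjusted p = 0.358), and its 3 albumin values of 8.33, 8.81 and 8.34 lay above the sham values of 8.16 and 8.19. Replicate 2 was the highest of the 3, and without it the Smad7 difference was 0.16. Smad3 gave −0.15 ± 0.42 with overlapping arrays, and a 95% interval of −1.12 to 0.82. Its albumin signals were 9.14, 8.25 and 9.30, and without replicate 2, the lowest of these, the difference was 0.17.

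Among the other ID genes, Id1 gave −0.036 ± 0.18 (95% interval −0.46 to 0.38) and Id2 0.035 ± 0.36 (−0.79 to 0.86). These intervals leave room for changes of under 2-fold in either direction and do not reach the size of the Id4 difference. Without albumin replicate 2 the differences were −0.16 for Id1 and 0.22 for Id2. The second, dimmer Id2 probe set gave 0.36, and 0.76 without albumin replicate 2. Id3 had 10.75, 10.69 and 10.79 with albumin, against 11.07 and 10.83 in sham animals, a difference of −0.21 ± 0.15 (adjusted p = 0.440). Over the 10 genes, 5 had all albumin arrays above sham, as did 22.2% of all genes tested, and 2 (Id3 and Id4) had all of them below, as did 19.2%. The median difference of the 10 was 0.18, against 0.017 over all genes.

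**Figure D1:**
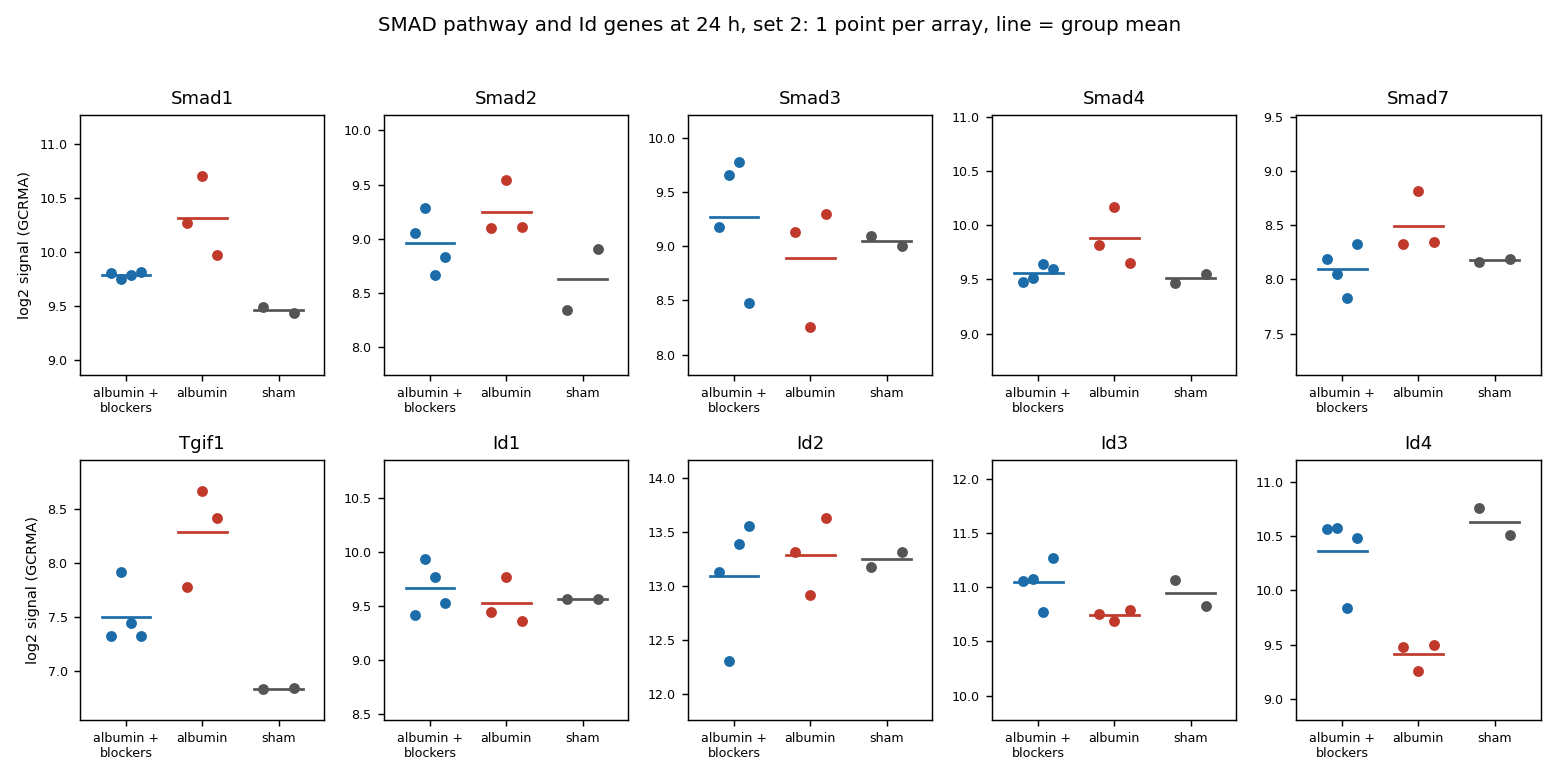
Log2 signal (GCRMA) of the 10 genes at 24 h in set 2, with 1 point per array, a line at each group mean, and a vertical span of 2.4 log2 units in every panel. The 3 albumin arrays lie above both sham arrays for Tgif1 and Smad1 and below them for Id4, whose albumin arrays sit between 9.25 and 9.50.

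Markers of other cells moved with this comparison. Of 10 meningeal markers tested, 10 were below sham with albumin and 3 fell (Ptgds, Slc13a4 and Ogn), with a median of −2.16. Without albumin replicate 2, 9 were below sham (median −1.96) and these 3 were no longer called (adjusted p = 0.0606, 0.0679 and 0.0676). The summed signal of the 11 measured markers was 11.8 to 12.7 (log2) with albumin, 12.97 to 14.2 with albumin plus blockers and 14.3 to 14.9 in sham animals. Of 9 astrocyte markers, 7 were below sham (median −0.53, none called), and without albumin replicate 2 the connexin gene Gjb6 was called (−1.74, adjusted p = 0.0408, against −2.44 and 0.0779 with it). The other 2 were above sham, among them the filament gene Gfap (limma, adjusted p = 0.0971). The astrocyte list had summed signals of 16.3 to 16.6 with albumin against 16.7 in both sham arrays. The 9 neuron markers, of which 7 were below sham, had summed signals of 16.4 to 16.7 with albumin and 16.7 to 16.8 in sham animals. Of the neutrophil and lymphocyte list 2 genes were tested, the neutrophil genes S100a9 (4.98 ± 1.32, adjusted p = 0.0954) and S100a8 (3.52 ± 1.39, 0.201). The median of this list, 4.25, was the farthest from 0 of all the marker lists, with a summed signal of 8.08 to 11.9 with albumin, 6.07 to 9.45 with albumin plus blockers and 5.10 to 6.34 in sham animals. Of 7 microglia and macrophage markers none was called and 4 were below sham (median −0.064; 0.013 without albumin replicate 2), among them P2ry12 (−2.38, adjusted p = 0.0558), while Itgam (1.83, 0.135) and Ptprc (1.60, 0.167) were above it. Both red cell markers tested were above sham (median 1.38, none called). Of 10 endothelial markers 6 were above sham and 4 below (median 0.26, none called). The 3 with the smallest p, Abcb1a, Slco1a4 and Cldn5, were below it (limma, adjusted p = 0.0551, 0.0877 and 0.113). The summed signal of the endothelial list was 12.4 to 12.5 with albumin and 12.7 to 12.8 in sham animals. The part of these markers in the Id4, Tgif1 and Smad1 results was not tested. In bulk tissue, fewer cells of a type and less mRNA per cell cannot be told apart.

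The second comparison asked what the receptor blockers did on top of albumin. None of the 10 genes passed the threshold, and 0.0194% of the 10333 genes tested did. At an unadjusted p under 0.05, 6 of the 10 genes passed (Smad1, Smad4, Smad7, Tgif1, Id3 and Id4), against 16.6% of all genes. Without albumin replicate 2 it was 3 of the 10 (Smad1, Tgif1 and Id4), against 13.2% of all genes. All arrays with blockers lay above all albumin arrays for Id4, as for 7.32% of genes, and below them for Smad1 and Smad4, as for 8.71%. This comparison and the first share the 3 albumin arrays, so that a high or low albumin array moves their differences in opposite directions.

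Id4 had 10.56, 10.58, 9.83 and 10.48 with albumin plus blockers, against 9.48, 9.25 and 9.50 with albumin alone. All 4 arrays with blockers lay above the 3 without, and replicate 3 was well below its group. The difference was 0.96 ± 0.19 (SE, n = 4 against 3; limma, adjusted p = 0.116). It passed the threshold without replicate 3 of the blocker group (1.13, adjusted p = 0.0447) and under no other omission of an array. Against sham, the blocker group differed by −0.27 ± 0.22 with a 95% interval of −0.77 to 0.23, and the arrays overlapped (−0.094 without replicate 3). The 4 Id4 probe sets were higher with blockers than with albumin alone by 0.96, 1.07, 0.86 and 1.06, and the arrays of the third overlapped.

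**Figure D2:**
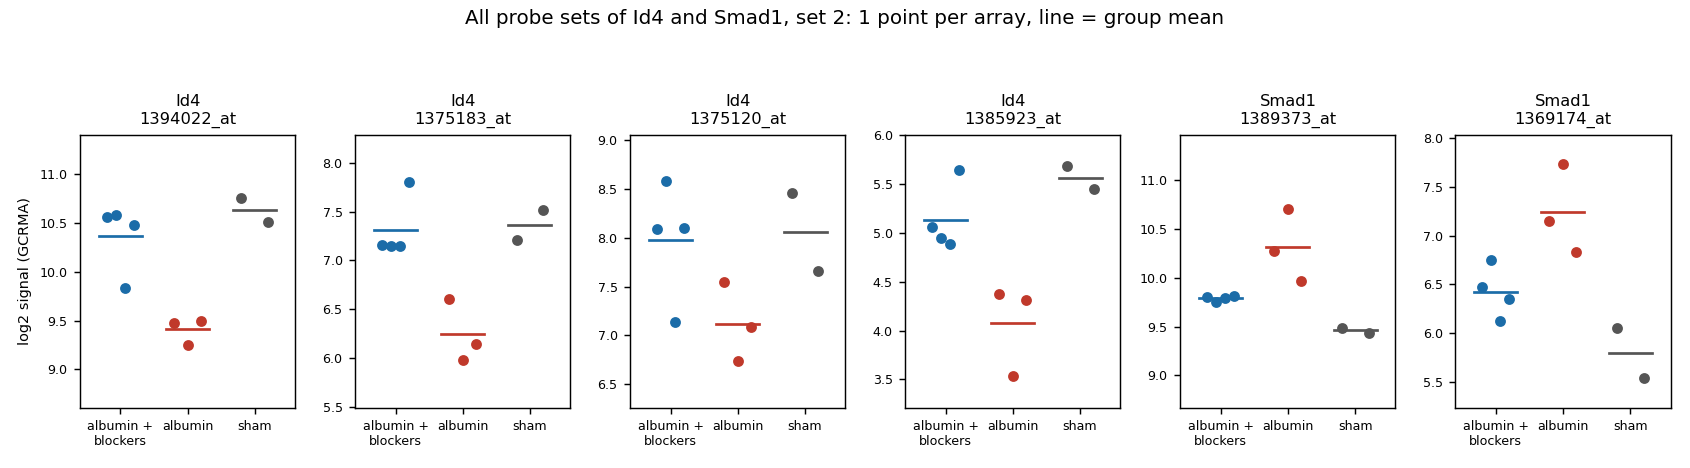
Log2 signal (GCRMA) on each of the 4 probe sets of Id4 and the 2 of Smad1 in set 2, with 1 point per array and a line at each group mean. On every Id4 probe set the albumin arrays lie below the sham arrays, and on both Smad1 probe sets they lie above the sham arrays and above every array with blockers.

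Smad1 had 9.80, 9.75, 9.79 and 9.82 with albumin plus blockers, all below the albumin values and above both sham values. The SD between arrays was 0.030 with blockers, against 0.37 with albumin alone. The difference from albumin was −0.52 ± 0.16 (adjusted p = 0.194) and that from sham 0.33 ± 0.18 (adjusted p = 1.0). Without albumin replicate 2, the highest albumin array, the difference from albumin was −0.33. Tgif1 had 7.32, 7.91, 7.45 and 7.32 with blockers, which gave −0.78 ± 0.23 against albumin (adjusted p = 0.192) and 0.66 ± 0.26 against sham. All 4 arrays stood above both sham arrays, and 1 of them above the lowest albumin array. The Tgif1 difference from sham had an unadjusted p of 0.0321 and an adjusted p of 1.0, in a comparison where limma called 0.0% of 10333 genes and 4.3% passed at an unadjusted p under 0.05. Smad1 and Tgif1 were the genes of the 10 with all blocker arrays above sham, as were 11.6% of all genes.

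Smad4 gave −0.32 ± 0.13 and Smad7 −0.40 ± 0.16 for albumin plus blockers against albumin (adjusted p = 0.274 each), and −0.18 and −0.24 without albumin replicate 2. Smad2 gave −0.29 ± 0.20, Smad3 0.38 ± 0.35 and Id1 0.14 ± 0.15, with overlapping arrays in all 3, and without albumin replicate 2 they gave −0.14, 0.058 and 0.26. Id3 had 11.06, 11.08, 10.77 and 11.27 with blockers, a difference of 0.30 ± 0.13 from albumin (adjusted p = 0.285). Id2 gave −0.19 ± 0.30, and −0.37 without albumin replicate 2. In this comparison 9 of 10 meningeal markers were higher with blockers (median 1.53, none called), as were 8 of 9 astrocyte markers (median 0.37, none called; 0.23 without albumin replicate 2). S100a9 and S100a8 were lower with blockers (median −2.31, none called), as was Ptprc (−1.42, adjusted p = 0.231), and P2ry12 was higher (2.00, 0.116). The part of these markers in the values of the 10 genes was not tested.

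**Figure D3:**
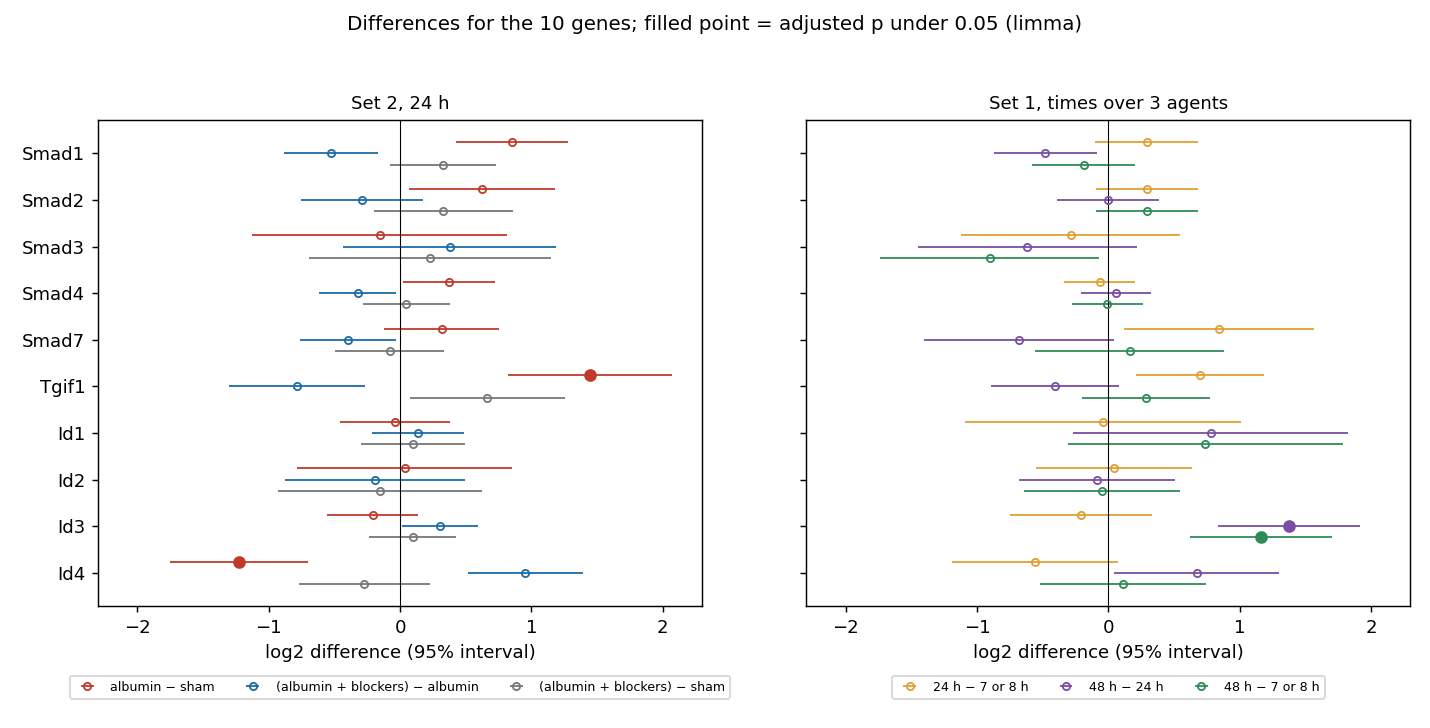
Log2 differences with 95% intervals for the 10 genes, for the 3 comparisons of set 2 (left) and the 3 comparisons of times in set 1 (right); filled points have an adjusted p under 0.05 in limma. On the left only Tgif1 (1.45) and Id4 (−1.23) are filled, both for albumin against sham; on the right only Id3 is, at 1.37 and 1.16.

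Set 1 gave each agent a time course against 1 sham array. With the 3 times of an agent averaged, none of the 10 genes passed for DOC, albumin or TGF-β1, where 0.469%, 0.369% and 0.0% of 10022 genes passed. For TGF-β1, 7.48% of all genes and none of the 10 had an unadjusted p under 0.05. Yet 4 genes stood on 1 side of sham on all 9 treated arrays, with Smad1, Smad4 and Tgif1 above it and Id4 below it. For Smad1 the second probe set did so too, as did 2 of the 3 other probe sets of Id4. On the remaining Id4 probe set DOC at 48 h and TGF-β1 at 8 h lay above sham, and on the second Smad4 probe set DOC and albumin at 24 h lay below it. Of all genes, 11.2% lay above sham on all 9 arrays and 12.2% below, and since every difference uses the same sham array the 9 values are not independent.

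Id4 had 9.78, 9.09 and 10.24 with DOC at 7, 24 and 48 h, 9.76, 8.92 and 10.02 with albumin at 8, 24 and 48 h, and 10.33, 10.19 and 9.95 with TGF-β1 at 8, 24 and 48 h, against 10.41 in the sham animal. With DOC and with albumin the 24 h array was the lowest, and with TGF-β1 the 48 h array. On the probe set used, the sham level at 24 h was 2.49 times that with DOC and 2.81 times that with albumin. It was 1.16 times that with TGF-β1. Averaged over times, the difference from sham was −0.70 ± 0.38 for DOC, −0.84 ± 0.38 for albumin and −0.25 ± 0.38 for TGF-β1 (adjusted p = 0.366, 0.447 and 0.999). The value for TGF-β1 was −0.58 without its 24 h array and 0.10 without its 48 h array. On the 3 dimmer Id4 probe sets, averaged over times, TGF-β1 gave −0.11, −0.63 and −0.87 against sham. In the same order DOC gave −0.41, −0.98 and −1.12, and albumin −0.67, −0.94 and −1.26. The TGF-β1 signals at 24 h were 7.335, 4.33 and 4.22 there, against 7.58, 5.09 and 5.12 in the sham animal. The 3 agents did not differ past the threshold in limma's F test (adjusted p = 0.457), which called 0.00998% of genes. Id4 was the only one of the 10 genes with at least a 2-fold difference in the same direction for albumin at 24 h in both sets, as were 3.9% of the 9845 genes tested in both.

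Tgif1 had 5.70, 7.01 and 6.21 with DOC at the 3 times, 6.12, 6.47 and 6.46 with albumin, and 6.18, 6.61 and 6.19 with TGF-β1, against 5.69 in the sham animal. The DOC array at 7 h was level with sham. DOC and TGF-β1 had their highest value at 24 h, and the albumin arrays at 24 h and 48 h were level. Averaged over times, the difference was 0.62 for DOC, 0.67 for albumin and 0.64 for TGF-β1, each ± 0.29 (adjusted p = 0.308, 0.433 and 0.720). Across agents, 24 h was 0.69 ± 0.21 above the early time (adjusted p = 0.215), with no overlap. Without the DOC array at 24 h this was 0.44, and the DOC difference from sham was 0.37.

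Smad1 had 8.82, 9.48 and 8.57 with DOC, 8.94, 9.18 and 8.81 with albumin, and 8.67, 8.65 and 8.48 with TGF-β1, against 8.40 in the sham animal. The DOC and albumin values on this probe set were highest at 24 h, and those with TGF-β1 were 0.26, 0.25 and 0.076 above sham. The difference from sham was 0.55 ± 0.23 for DOC, 0.58 ± 0.23 for albumin and 0.20 ± 0.23 for TGF-β1 (adjusted p = 0.269, 0.408 and 0.999), and 0.35 for DOC without its 24 h array. The second, dimmer Smad1 probe set had its lowest DOC value at 24 h (5.27, 4.81 and 5.01 at the 3 times) and its highest albumin value there (4.78, 5.66 and 4.67). Smad7 had 6.12, 7.96 and 6.53 with DOC, 6.58, 7.17 and 6.75 with albumin, and 7.00, 7.10 and 6.90 with TGF-β1, against 6.73 in the sham animal. Its highest value came at 24 h with all 3 agents, and 24 h exceeded the early time by 0.84 ± 0.31 (adjusted p = 0.285). By agent this was 1.84 with DOC, 0.59 with albumin and 0.097 with TGF-β1, and the fitted difference was 0.41 without the DOC array at 24 h and 0.53 without that at 7 h.

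**Figure D4:**
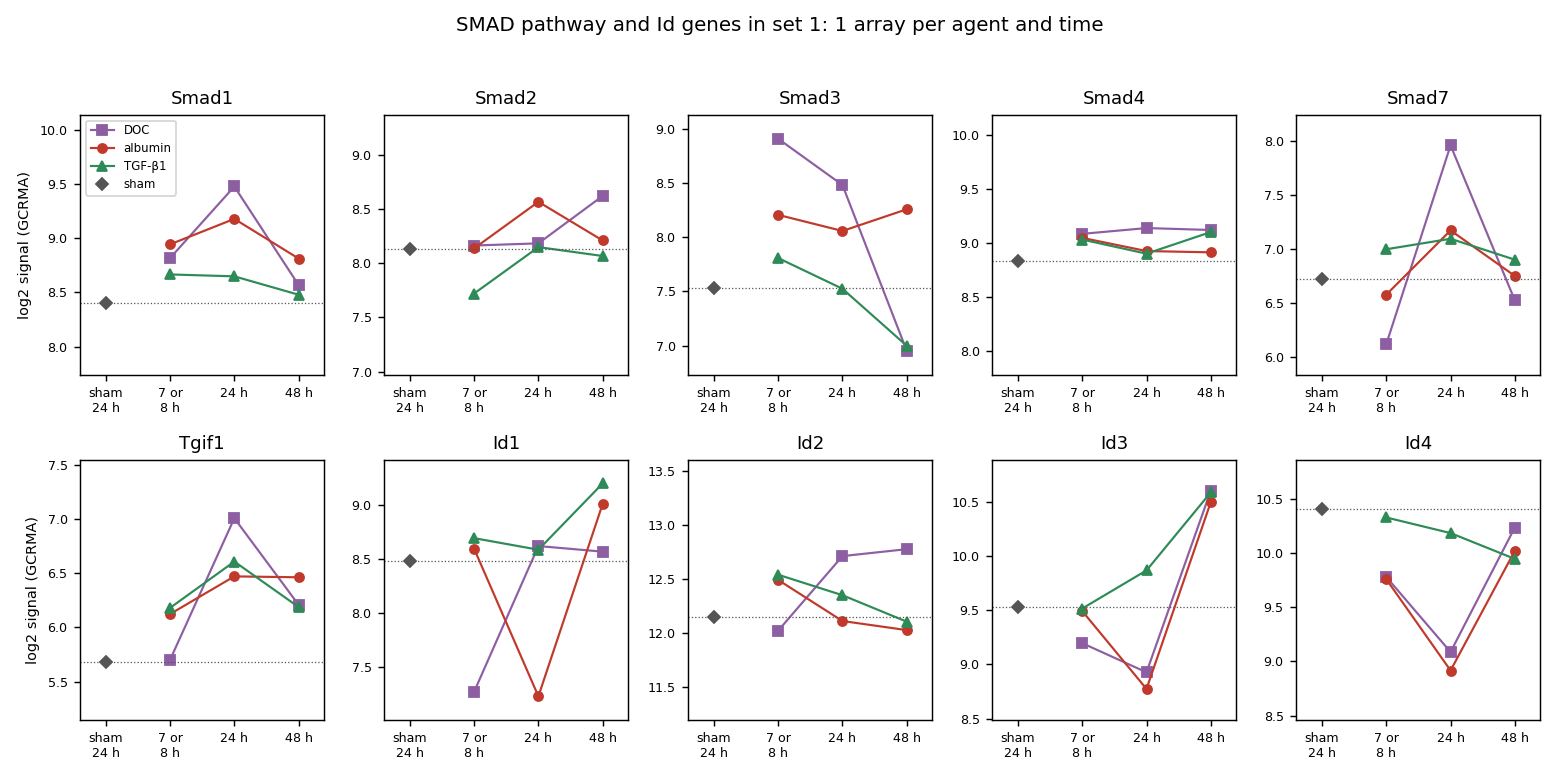
Log2 signal (GCRMA) of the 10 genes in set 1 by agent and time, with 1 array per point, the sham array at the left and a dotted line at its level; every panel spans 2.4 log2 units. On the probe set drawn, Id4 dips at 24 h with DOC (9.09) and albumin (8.92) but not with TGF-β1 (10.19). Id3 lies between 10.50 and 10.60 with every agent at 48 h.

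The third comparison set the times against each other over the 9 treated arrays. Id3 rose at 48 h against both earlier times, to 2.59 times its 24 h level and 2.24 times its early level, and was the only one of the 10 genes to pass. Of 10022 genes, 1.41% passed for 48 h against 24 h (1.3% as higher at 48 h), 5.09% for 48 h against the early time (3.91% as higher) and 0.798% for 24 h against the early time. The arrays of the later time lay wholly above those of the earlier one for Smad7 and Tgif1 at 24 h against the early time (10.2% of all genes), for Id3 at 48 h against 24 h (10.8%), and for Id3 and Tgif1 at 48 h against the early time (14.8%). They lay wholly below for Smad7 and Tgif1 at 48 h against 24 h (7.77%). The Id3 signals at the early time were 9.20 with DOC, 9.49 with albumin and 9.52 with TGF-β1. At 24 h they were 8.93, 8.77 and 9.87 with the agents in that order, and at 48 h they were 10.60, 10.50 and 10.59. The 48 h arrays lay close together, above all 6 earlier arrays and above the sham array (9.53). The SD between agents was 0.18 at the early time, 0.59 at 24 h and 0.057 at 48 h.

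The Id3 difference was 1.37 ± 0.23 for 48 h against 24 h (SE, n = 3 against 3; limma, adjusted p = 0.0456) and 1.16 ± 0.23 for 48 h against the early time (adjusted p = 0.0377). Leaving out 1 array at a time gave 1.16 to 1.68 for 48 h against 24 h, where the call was kept without TGF-β1 at 24 h (adjusted p = 0.0343) and lost without each of the other 8 arrays (0.0656 to 0.155). For 48 h against the early time it was kept without any 1 of the 3 arrays at 24 h (0.0177 to 0.0477) and lost without each of the other 6 (0.0695 to 0.164, values 1.02 to 1.35). Both calls were lost with no filter on low values (adjusted p = 0.125 and 0.0978) and with each probe set fitted alone (0.0718 and 0.0546). For 24 h against the early time, Id3 gave −0.21 ± 0.23.

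Markers of several cell types differed at 48 h. Of 8 microglia and macrophage markers, 7 rose against the early time (median 1.84) and 3 against 24 h (median 1.12), and their summed log2 signal was 9.50 to 10.0 at the early time, 10.0 to 10.6 at 24 h and 11.4 to 11.9 at 48 h. Of 10 endothelial markers, 4 rose against the early time (median 0.88) and none against 24 h (median 0.39), with summed signals of 10.7 to 11.3, 10.99 to 11.4 and 11.9 to 12.1 at the 3 times and 11.8 in the sham animal. Of 8 meningeal markers tested, 3 rose against the early time and 1 against 24 h, and both red cell markers tested, Alas2 and Hbb, fell against the early time. Of 9 astrocyte markers 1 rose against the early time, the filament gene Gfap (2.19 ± 0.29, adjusted p = 0.00945), and 1 fell, Gjb6 (−1.72 ± 0.27, 0.0171), with a median of −0.029 and none called against 24 h. S100a9 and S100a8 were lower at 48 h than at the early time (median −3.30, none called), as were 8 of 9 neuron markers (median −0.12, none called). The part of these markers in the Id3 result was not tested.

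Id1 had 7.27, 8.62 and 8.56 with DOC at the 3 times, 8.59, 7.23 and 9.005 with albumin, and 8.69, 8.58 and 9.19 with TGF-β1, against 8.47 in the sham animal. A single array was low with DOC (7 h) and another with albumin (24 h), each more than 2-fold below sham, and the remaining 7 lay between 8.56 and 9.19. No Id1 difference between times passed (48 h against 24 h, 0.78 ± 0.44, adjusted p = 0.419; 0.20 without albumin at 24 h and 1.33 without DOC at 24 h), and the 3 albumin arrays at 24 h in set 2 had 9.45, 9.77 and 9.36, against 9.57 on both sham arrays. Id4 gave 0.67 ± 0.27 for 48 h against 24 h (adjusted p = 0.285; 1.02 without TGF-β1 at 48 h), with overlapping arrays.

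Smad3 had 8.91, 8.48 and 6.95 with DOC at 7, 24 and 48 h, 8.21, 8.06 and 8.26 with albumin, and 7.81, 7.53 and 7.00 with TGF-β1, against 7.53 in the sham animal. The 48 h value was the lowest with DOC and TGF-β1 and the highest with albumin, and 48 h against the early time gave −0.91 ± 0.35 (adjusted p = 0.205), and −0.41 without DOC at 48 h. Smad2 stayed between 7.72 and 8.62, Smad4 between 8.90 and 9.14, and Id2 between 12.025 and 12.8 on the 9 treated arrays, and none of their differences between times had an adjusted p below 0.368. The second Id2 probe set did not follow the first: for 48 h against the early time the first gave −0.048 and the second 0.46. For DOC against sham, averaged over times, the first gave 0.35 and the second −0.53.

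Counted per array, at least 2-fold differences from sham were found for 2, 4 and 1 of the 10 genes with DOC at 7, 24 and 48 h, where 8.53%, 11.3% and 9.8% of all genes reached that size. Albumin gave 0, 2 and 0 at 8, 24 and 48 h (4.79%, 7.38% and 9.18% of all genes), and TGF-β1 gave 0, 0 and 1 (3.64%, 3.88% and 6.7%). For albumin at 24 h the sign was the same in both sets for 8 of the 10 genes, and it was opposite for Smad3 and Id2. Over all genes 70.2% had the same sign.

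Over the 19 arrays, with each set centred on its own mean, Smad1 and Id4 had a correlation of −0.86 on the probe sets used. It was −0.89 within set 1 and −0.84 within set 2. The second Smad1 probe set, with its lowest DOC value at 24 h (4.81), was not correlated with Id4. Smad1 and Tgif1 had 0.76, Smad1 and Smad4 0.70 (0.28 in set 1 and 0.93 in set 2), and Tgif1 and Id4 −0.68. For Id1 and Id3 it was 0.64, which was 0.69 in set 1 and −0.021 in set 2. These describe arrays that share treatments and, within each array, the tissue sampled, so they carry no test. The genes most like Smad1 over the 19 arrays were Myc, Pcnx1 and Ptp4a1 (r = 0.90 each). Those most like Tgif1 were Coq8b, Tnip2 and Pnoc (0.91, 0.91 and 0.89), and those most like Id4 were Cpt1a, Tmem229a and LOC102549303 (0.88, 0.88 and 0.86). Id3 was most like Loxl1, Laptm5 and Gpx8 (0.915, 0.89 and 0.89). Smad7 had Kpna3, Hnrnpr and Phospho1 (0.92, 0.86 and 0.86), and for Id1 the closest, Gss, had 0.83 over the 19 arrays but 0.28 within set 2. Within set 2, Laptm5 had 0.46 with Id3, and Hnrnpr and Phospho1 had 0.62 and 0.64 with Smad7.

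**Figure D5:**
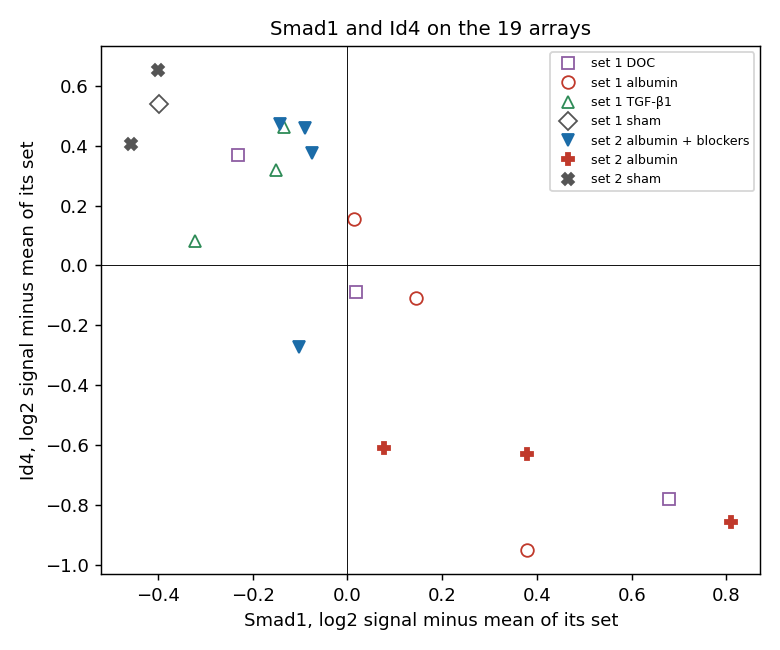
Smad1 (horizontal) against Id4 (vertical) on the 19 arrays, each gene on its brightest probe set. Values are log2 signal minus the mean of the array's own set, with open symbols for set 1 and filled ones for set 2. The albumin arrays of set 2 and the 24 h arrays of DOC and albumin of set 1 lie at the lower right, and the 3 sham arrays at the upper left, with a correlation of −0.86 over all arrays.

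Other genes of the pathway were counted on lists. With albumin against sham in set 2, none of 2 other SMAD genes tested (Smad5 and Smad9), none of 8 corepressors and coactivators, none of 12 genes of SMAD turnover and feedback and none of 12 helix-loop-helix partners of ID proteins passed. Of 13 BMP ligands, receptors and antagonists 1 rose, Eng (endoglin, a co-receptor of endothelial cells), by 1.26 ± 0.23 (adjusted p = 0.0486; 0.0663 without albumin replicate 2). Leaving out each of the 9 arrays in turn kept this call without replicate 4 of albumin plus blockers and ended it without each of the other 8. In the same list Bmp6, a BMP ligand, gave −1.33 ± 0.29 (0.0631). Of 10 other SMAD targets 9 were above sham (median 1.17, against 0.017 over all genes) and 1 rose, the growth regulator Myc, by 3.53 ± 0.62 (adjusted p = 0.0470; 0.0606 without albumin replicate 2). The Myc call was kept without replicate 3 or 4 of albumin plus blockers and ended without each of the other 7 arrays. Next to it by p came the cell cycle inhibitor Cdkn1a (2.00 ± 0.45, 0.0674) and the transcription factor Junb (1.76 ± 0.47, 0.0956). The list of targets does not separate genes that SMADs raise from genes that they lower. Of the 12 genes of turnover and feedback 11 were above sham (median 0.29; 0.15 without albumin replicate 2), and Pmepa1, a SMAD-binding feedback inhibitor, gave 1.98 ± 0.64 (adjusted p = 0.140), which without albumin replicate 2 was 1.19 and passed (0.0408). Among the corepressors Hdac1 gave 0.56 ± 0.21 (0.189) and Skil 0.58 ± 0.24 (0.219; 0.31 without albumin replicate 2). Of the 12 helix-loop-helix partners 9 were below sham (median −0.18; −0.049 without albumin replicate 2). First by p were the Notch-responsive repressors Heyl (−1.30 ± 0.26, 0.0551) and Hes5 (−1.33 ± 0.45, 0.150). Hes1, next by p and of the same kind, lay above sham (0.87 ± 0.33 with all albumin arrays, 0.182).

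No list had a called gene with albumin plus blockers against albumin, a comparison that shares its albumin arrays with the one above. Of the 10 SMAD targets 9 were lower with blockers (median −0.92, against −0.0028 over all genes), among them Myc (−2.38 ± 0.52, adjusted p = 0.119), Junb (−1.80 ± 0.39, 0.123) and Atf3, a stress-induced factor (−3.22 ± 0.79, 0.155; −2.07 without albumin replicate 2). Of the 12 genes of turnover and feedback 11 were lower (median −0.22; −0.13 and 9 of 12 without albumin replicate 2), with Pmepa1 at −1.38 ± 0.53 (0.268; −0.59 without it). Eng gave −1.13 ± 0.19 (0.0992) and Bmp6 1.06 ± 0.24 (0.132). With TGF-β1 against sham in set 1, 7 of 10 other SMAD targets tested were above sham and 3 below (median 0.43, none called). First by p were Bhlhe40 (−1.41 ± 0.36, adjusted p = 0.34) and Junb (−1.03 ± 0.54, 0.80), both below sham. Next came Myc, above sham (0.84 ± 0.48, 0.848). At 48 h against the early time in set 1, Ctbp2, a corepressor, rose by 0.57 ± 0.12 (adjusted p = 0.0438) and the collagen gene Col1a1 by 1.49 ± 0.27 (0.0296). The Ctbp2 call was lost without any 1 of the 9 arrays and the Col1a1 call without 5 of them. The BMP receptor gene Bmpr1a gave 0.67 ± 0.18 (0.0862). Col1a1 stands on the list of meningeal markers as well.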

How the data were processed

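Total RNA of rat somatosensory cortex was hybridised to Affymetrix arrays as biotin-labelled cRNA, per the labels' protocols. The deposited values are log2 signals per probe set; per the submitters' processing notes, the authors used GCRMA (version not given in the sources used here). This method subtracts background and equalises the distributions of the arrays, so a shift shared by most genes would not be seen.

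Of 31099 probe sets, 57 were controls, 20837 named 1 gene, 425 several and 9780 none. The symbols were brought up to date with RefSeq's GRCr8 gene table, through Entrez identifiers (20769 probe sets) or accessions (2), while 66 stayed as on the platform. Of the resulting genes, 4529 had several probe sets, and the one with the highest mean was used. The filter left 10333 genes in set 2 and 10022 in set 1.

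Tests were two-sided and came from limma 3.58.1 (lmFit, eBayes) under R 4.3.3, adjusted after Benjamini-Hochberg across every gene tested. The 3 groups of set 2 entered 1 fit with a common estimate of spread. In set 1, agent and time were additive terms and the residual was the spread; the lone sham array was assumed to vary like the treated ones, and times and agents were compared among the 9 treated arrays. Differences are the first-named group minus the second, with moderated standard errors. The code of the fits was run on simulated normal values with known shifts. Such values need not vary like the arrays, so this run says nothing on how reliable the calls are. Tables and plots used Python 3.11.15, pandas 2.3.3, numpy 2.4.6 and matplotlib 3.10.9.

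All 10 genes are given in every main comparison, up to 3 genes with the smallest p of a list were named, and for likeness the 3 genes with the highest correlation. The genes and lists were chosen with earlier results of these data known. Scan dates and slides were not given in the sources used here, so no array batch could be examined. Alternatives were no filter or a stricter one, another prior, means over probe sets, centring, other sets of arrays, a replicate block, leaving out each array, and, chosen after seeing the data, each probe set fitted alone.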

Additional observations from a re-analysis of the deposited data

Results flagged for a closer look

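Id4 with albumin plus blockers in set 2 had 1 array apart from the rest of its group. Replicate 3 had a log2 signal of 9.83, and the other 3 arrays had 10.56, 10.58 and 10.48. The gap from replicate 3 to its nearest neighbour was 0.869 of the range of the group, above Dixon's 95% critical value for 4 arrays. Chance alone gives such a gap in about 1 in 20 groups, and the 10 genes were each looked at in this group. On the other 3 Id4 probe sets, in order of their signal in this group, the arrays had 8.09, 8.58, 7.14 and 8.10, then 7.16, 7.15, 7.14 and 7.80, then 5.06, 4.95, 4.88 and 5.64 on replicates 1 to 4. Replicate 3 was clearly lowest on the first of these, but on the other two it lay close to replicates 1 and 2, and replicate 4 stood apart as the highest. The cause was not tested.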

How the results depend on the processing

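The counts of genes called depended on the fit. For albumin against sham in set 2 (137 genes, 2 of the 10 members), no filter on low values gave 27 genes and 0 members, a trended and robust prior 1 member (Id4), the mean of all probe sets of a gene 1 member (Tgif1), and centring each array on its median 1 member (Id4). Fitting only the arrays of the compared groups gave 4 genes and 0 members, each probe set fitted alone 61 probe sets and 0 members, and a joint fit of the 19 arrays, with set as a term, 1195 genes and 3 members (Smad1, Tgif1 and Id4). Leaving out 1 array at a time gave 1 to 190 genes and 0 to 1 members, the fewest without a sham array. For albumin plus blockers against albumin (2 genes), no filter gave 1, the stricter filter, the trended prior and the 2 groups alone 0 each, centring and single probe sets 5 each, all 19 arrays 86, and leaving out 1 array 0 to 28 genes and 0 to 1 members. For albumin plus blockers against sham (0 genes), the 2 groups alone gave 2, single probe sets 1, and leaving out 1 array 0 to 1.

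The replicate numbers of set 2 are not stated to mark a shared litter or day. Deviations of same-numbered arrays had correlations of −0.136 to 0.223, and those of differently numbered arrays −0.263 to 0.263. With so few arrays in a group, these values cannot decide whether the numbers paired the samples. With a replicate block, albumin against sham had 53 genes and 0 members called, albumin plus blockers against albumin 0 genes and albumin plus blockers against sham 1 gene, and Id2 for albumin against sham turned to −0.16.

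In set 1, DOC against sham (47 genes) gave 75 with no filter, 1 with means of probe sets, 475 with all 19 arrays, 12 with single probe sets, and 1 to 202 without 1 array. Albumin against sham (37 genes) gave 61 with the trended prior, 13 with means, 568 genes and 3 members with all 19 arrays, and 2 to 117 without 1 array. TGF-β1 against sham (0 genes) gave 6 with no filter, 1 with the stricter filter, 7 with the trended prior, 6 with all 19 arrays, and 0 to 5 without 1 array. For 24 h against the early time (80 genes) no filter gave 0, the trended prior 129, single probe sets 29, and leaving out 1 array 1 to 126. For 48 h against 24 h (141 genes, Id3) no filter gave 57 genes and 0 members, the stricter filter 50 and 0, single probe sets 0 members, and leaving out 1 array 35 to 103 genes and 0 to 1 members. For 48 h against the early time (510 genes, Id3) no filter gave 286 genes and 0 members, single probe sets 0 members, and leaving out 1 array 167 to 573 genes and 0 to 1 members. The test between agents (1 gene) gave 2 with no filter, the stricter filter and the trended prior, and 1 to 4 without 1 array.

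No called difference changed sign. Small differences that did, none of them called, were these. With the mean of all probe sets, albumin plus blockers against sham gave 0.0505 for Smad7 and 0.14 for Id2; Id2 gave −0.0876 for DOC and −0.16 for albumin against sham in set 1, 0.0724 for 48 h against 24 h and 0.20 for 48 h against the early time; the last comparison gave 0.0295 for Smad4 and −0.0008 for Smad7. With centring, Id2 gave −0.0077 for albumin against sham in set 2, Smad4 −0.0224 for albumin plus blockers against sham, and Id3 −0.0051 for DOC and −0.003 for albumin in set 1. With all 19 arrays, Smad3 gave 0.16 for albumin against sham in set 2, Smad4 −0.0116 for albumin plus blockers against sham, and Smad7 −0.0578 and Id1 0.0438 for albumin in set 1.

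Without 1 array at a time, differences that crossed zero ran as follows. For albumin against sham in set 2, Id1 ran from −0.16 to 0.0474, Smad3 from −0.36 to 0.17 and Id2 from −0.14 to 0.22. For albumin plus blockers against albumin, Id2 ran from −0.37 to 0.0749. Against sham, albumin plus blockers gave −0.31 to 0.11 for Id2, −0.16 to 0.0119 for Smad7 and −0.0229 to 0.22 for Id3. In set 1, DOC gave −0.88 to 0.16 for Id1, −0.29 to 0.45 for Smad7 and −0.10 to 0.13 for Id3, albumin −0.15 to 0.17 for Id2, −0.11 to 0.27 for Id3 and −0.61 to 0.38 for Id1, and TGF-β1 −0.58 to 0.10 for Id4. For 24 h against the early time, Smad3 ran from −0.56 to 0.0118, Id2 from −0.32 to 0.25, Id1 from −0.60 to 0.54 and Id3 from −0.52 to 0.0022. For 48 h against 24 h, Id2 ran from −0.33 to 0.0474 and Smad2 from −0.18 to 0.14. For 48 h against the early time, Smad7 ran from −0.15 to 0.41, Id4 from −0.0934 to 0.46, Smad4 from −0.0649 to 0.0386 and Id2 from −0.41 to 0.16. The causes were not tested. Set 1 has 1 sham array and set 2 has 2, which limits every comparison with sham.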

Other observations

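Smad1, Smad3, Smad4, Smad7, Id2 and Id4 were read by more than 1 probe set. A second Smad7 probe set had a mean of 5.61 with albumin, against 4.34 in sham animals, in set 2 and was below the filter in set 1, and another, with means of 2.39 with albumin and 2.41 in sham animals, was below the filter in both sets. The second Smad3 probe set, with means of 1.92 with albumin and 1.93 in sham animals, was below the filter as well, so Smad3 rests on 1 probe set. The second Smad4 probe set gave 0.38 for albumin against sham in set 2 (0.17 without albumin replicate 2), where the one used gave 0.37. In set 1 they differed: the second gave −0.32 for 24 h against the early time and 0.39 for 48 h against 24 h, both with no overlap, and the one used gave −0.066 and 0.057 with overlapping arrays.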
